A study of Mus musculus with 2 samples.

Results

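The expression of 10 regulators of DNA methylation and Polycomb repression was followed in single multipotent progenitors of mouse bone marrow: the DNA methyltransferases Dnmt1, Dnmt3a and Dnmt3b, the TET dioxygenases Tet1, Tet2 and Tet3, the Polycomb repressive complex 2 (PRC2) core genes Ezh2, Eed and Suz12, and the Polycomb repressive complex 1 (PRC1) gene Bmi1. They were taken by symbol, without regard to their values, and all 10 were found among the 27998 genes of the count matrix. Multipotent progenitors (MPPs) lie below the haematopoietic stem cell and can still form lymphoid and myeloid lineages. Both samples were C57BL/6 mice given thioglycollate, an irritant that draws leukocytes into the peritoneum, by intraperitoneal injection 20 hours before the marrow was taken. In 1 sample the mice were wild type (C57BL/6_WT). In the other they were C57BL/6 Spp1-/-, which lack the gene of osteopontin, a secreted matrix protein and cytokine. The age, the number of animals pooled and how the Spp1-/- allele was made are not stated in the sources used here. Cells were sorted as Lin-, Sca-1+, c-kit+ and CD34+ with a gate that the label writes as Flt3L+, and were measured with droplet-based 3' sequencing, in which each captured molecule carries its own tag (a unique molecular identifier, UMI).

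Barcode suffixes divide the matrix into 2 libraries, and which of them is wild type is given by neither the labels nor the files. They are called library 1 and library 2, and no difference between them was given a genotype direction. With 1 library per genotype and no replicate there is no test, and every interval is a 95% interval that covers counting error only. After cells with at least 500 genes and under 10% mitochondrial UMIs were kept, library 1 had 3253 cells with a median of 2830 UMIs and library 2 had 4570 cells with a median of 3836 UMIs. The genes of the sort were present, at 36.1 and 36.6 counts per 1000000 UMIs (CPM) for Kit, 311 and 294 for Ly6a, which encodes Sca-1, 413 and 457 for Cd34, and 122 and 141 for Flt3. The 6 T and NK cell markers summed to 300 and 320 CPM, of which Nkg7 gave 299 and 319 CPM. Of the other 5, Klrb1c had 10 and 17 UMIs, Cd3d had 0 and 1, and Cd3e, Cd3g and Ncr1 had none in either library, which allows up to 0.296 and 0.160 CPM (3 counts of the total). The summed level of 8 dendritic cell markers came to 1248 CPM and 716 CPM. Of these sums Bst2 gave 332 and 341 CPM and Flt3, a gene of the sort, 122 and 141 CPM. Itgax was at 1.68 and 0.907 CPM and Siglech at 1.88 and 1.55 CPM, so the sum does not measure dendritic cells alone. In library 1 41 and in library 2 2 kept cells had at least 20 UMIs of the MHC class II genes H2-Aa, H2-Ab1, H2-Eb1 and Cd74. The libraries shared 32 barcode sequences, and no doublet was removed.

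DNA methylation is laid down at new sites by the DNMT3 enzymes and copied onto the daughter strand behind the replication fork by DNMT1, which UHRF1 guides to hemimethylated DNA. TET enzymes oxidise the methyl group, a step towards its removal. PRC2 methylates lysine 27 of histone H3 through EZH2, with EED and SUZ12 as the other core subunits, and PRC1 complexes, which can contain BMI1, ubiquitinate histone H2A. Loss of Dnmt3a or Tet2 is known to increase self-renewal of haematopoietic stem cells, and Bmi1 is known for its part in maintaining them through repression of the Cdkn2a locus.

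Dnmt1 was detected in the libraries at 124.8 CPM (118.0 to 131.9, 1263 UMIs) and 147.2 CPM (141.8 to 152.8, 2760 UMIs), with a UMI in 29.8% and 41.8% of kept cells. The de novo enzymes stood at 28.9 and 28.3 CPM for Dnmt3a and at 30.2 and 28.1 CPM for Dnmt3b, with a UMI in 8.12% and 10.7% of cells and in 8.45% and 10.6% of cells. Tet1 was at 20.4 CPM (17.7 to 23.3) and 15.8 CPM (14.0 to 17.7). Tet3 was at 20.4 and 22.5 CPM. Tet2 gave 56 and 105 UMIs in all, or 5.53 CPM (4.18 to 7.19) and 5.60 CPM (4.58 to 6.78), in 1.69% and 2.23% of cells. In the PRC2 core, Ezh2 was at 87.8 CPM (82.1 to 93.7) and 101.0 CPM (96.5 to 105.6), Eed at 56.5 CPM (52.0 to 61.4) and 68.5 CPM (64.8 to 72.4), and Suz12 at 25.7 and 24.6 CPM. Bmi1 was at 8.40 CPM (6.71 to 10.4) and 9.07 CPM (7.75 to 10.5), with a UMI in 2.58% and 3.63% of cells. The assay counts molecules at the 3' end and values are not divided by transcript length; capture can still differ between genes, so the levels order the libraries and cell classes of a gene and not the genes.

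**Figure D1:**
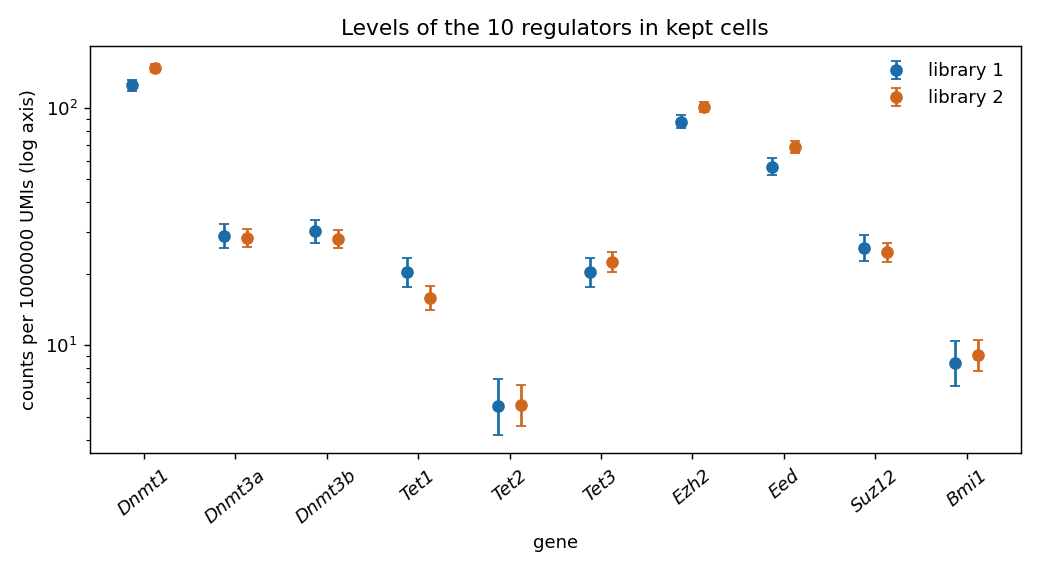
Level of each regulator in the kept cells of each library, in counts per 1000000 UMIs on a log axis; bars are exact Poisson 95% intervals for counting error. The points of the libraries lie close together for every gene, from 5.53 and 5.60 for Tet2 to 124.8 and 147.2 for Dnmt1.

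The library 2 over library 1 ratio did not reach 1.5-fold in either direction for any of the 10 genes, beside 3.13% of 8242 genes with at least 50 UMIs in each library that were at least 1.5-fold higher in library 2 and 1.54% that were at least 1.5-fold lower. Intervals above 0 were seen for Dnmt1, with a log2 ratio of 0.24 (0.14 to 0.34), Ezh2, with 0.20 (0.09 to 0.32), and Eed, with 0.28 (0.13 to 0.42). Tet1 had a log2 ratio of -0.37 (-0.63 to -0.10). The median over the 8242 genes was 0.11. Library 2 cells held more UMIs, and shares were therefore also taken with the UMIs of a cell drawn down at random to 2000 (thinned), a depth that 2444 and 4016 cells reached and 809 and 554 did not. At that depth Dnmt1 was seen in 21.8% and 25.1% of cells, Ezh2 in 15.9% and 17.9%, Eed in 10.8% and 13.4%, and Tet1 in 4.17% and 3.31%. Of these thinned cells 43.6% and 41.9% had no UMI of any of the 10 genes, 39.7% and 38.2% had 1 of them, and no cell had more than 5. No cell class of this sort is known to lack these genes, so no share from free RNA was measured.

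Cells rich in S-phase transcripts carried more Dnmt1 in both libraries. S phase was scored as the summed UMIs of 27 replication genes such as Pcna, Mcm5 and Rrm2, none of them among the 10, in cells thinned to 2000 UMIs. Cells with 12 or more such UMIs (483 and 1144 cells) were set against cells with 5 or fewer (727 and 1008). A gene passed when it had at least 50 UMIs in these cells of each library and differed by at least 1.5-fold the same way in both, which was met in the higher direction by 2.99% and in the lower direction by 1.31% of 4341 genes. Of the 10 regulators 7 were measured; Tet2, Tet3 and Bmi1 had too few UMIs. Dnmt1 passed as higher and Tet1 as lower, and the other 5 did not pass. The median log2 ratio of the 7 was 0.10 in library 1 and 0.32 in library 2, beside 0.07 and 0.04 over all genes measured.

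Dnmt1 stood at 153.2 CPM (129.5 to 180.0) in the S-phase-rich and 96.3 CPM (81.0 to 113.6) in the S-phase-poor cells of library 1, and at 177.0 CPM (160.2 to 195.1) and 104.2 CPM (90.6 to 119.2) in library 2. It was seen in 26.5% against 16.8% of cells and in 29.6% against 18.5%. The log2 ratios were 0.67 (0.33 to 1.01) and 0.76 (0.52 to 1.01), or 1.59-fold and 1.70-fold. Over 4 steps of the S-phase sum (0 to 5, 6 to 7, 8 to 11 and 12 to 28 UMIs) the level rose at each step, from 96.3 through 131.5 and 140.7 to 153.2 CPM in library 1 and from 104.2 through 134.3 and 158.1 to 177.0 CPM in library 2. Neighbouring steps overlapped in their intervals, and the lowest and highest did not overlap in either library. Thinning is a random draw, and over 20 draws the log2 ratio was 0.63 ± 0.09 (SD over draws) and 0.84 ± 0.09, positive in each draw and past 1.5-fold in both libraries in 10 of them. With all UMIs of the same cells it was 0.59 and 0.69. With cells thinned to 3000 UMIs it was 0.51 and 0.74, which is under 1.5-fold in library 1, and Eed passed there in place of Dnmt1.

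Eed is the PRC2 subunit that binds trimethylated lysine 27. It was at 62.1 CPM (47.4 to 80.0) against 46.1 CPM (35.7 to 58.5) in library 1 and at 93.5 CPM (81.4 to 106.9) against 45.6 CPM (36.8 to 56.0) in library 2. The ratio was 2.05 (1.60 to 2.65) in library 2, while that of library 1, 1.35 (0.935 to 1.94), included 1. Over 20 draws its log2 ratio was 0.44 ± 0.17 and 0.85 ± 0.15, and it passed in both libraries in none of them. Ezh2, the catalytic subunit, was at 96.3 CPM against 83.9 CPM and at 116.3 CPM against 81.8 CPM, with ratios of 1.15 (0.866 to 1.52) and 1.42 (1.17 to 1.74) and 20-draw means of 0.43 and 0.35 on the log2 scale. Suz12 went opposite ways, at 28.0 against 26.1 CPM in library 1 and at 14.9 against 24.3 CPM in library 2, and its 20-draw means were 0.25 and -0.01. The library 2 log2 ratio of the draw reported, -0.71, lay outside the range of the 20 draws, -0.41 to 0.37.

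Tet1, which makes 5-hydroxymethylcytosine, had 16 UMIs in the S-phase-rich and 39 in the S-phase-poor cells of library 1, and 28 and 40 in library 2. The levels were 16.6 against 26.8 CPM and 12.2 against 19.8 CPM, and the ratios of 0.618 (0.322 to 1.13) and 0.617 (0.366 to 1.02) both included 1. The call was not kept over other draws: the 20-draw mean was -0.57 and -0.29 on the log2 scale, and in none of the 15 draws in which Tet1 had enough UMIs did it pass in both libraries. Dnmt3a, at 19.7 against 25.4 CPM and 26.2 against 27.3 CPM, and Dnmt3b, at 28.0 against 36.5 CPM and 32.8 against 26.3 CPM, had intervals that included 1 in both libraries.

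**Figure D2:**
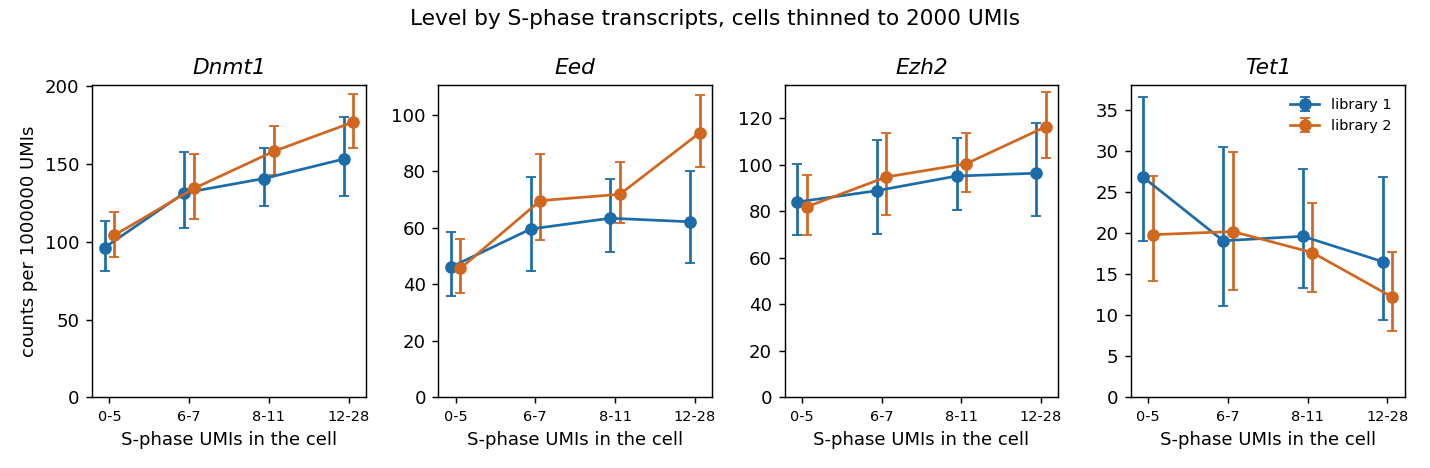
Level of Dnmt1, Eed, Ezh2 and Tet1 (counts per 1000000 UMIs) in cells thinned to 2000 UMIs, by the number of S-phase UMIs in the cell; bars are Poisson 95% intervals for counting error. Dnmt1 climbs in both libraries, from 96.3 to 153.2 and from 104.2 to 177.0, while the intervals of Tet1 overlap across the axis.

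The S-phase classes differed in other ways as well. The summed dendritic markers were at 767 CPM in the S-phase-rich and 1627 CPM in the S-phase-poor cells of library 1 and at 782 and 780 CPM in library 2. Without the cells with at least 20 MHC class II UMIs the log2 ratio of Dnmt1 was 0.66 and 0.76. The S-phase-poor cells held more mitotic transcripts than the S-phase-rich ones in both libraries. The means were 4.62 against 3.51 UMIs in library 1 and 8.41 against 4.17 UMIs in library 2. About the S-phase cuts, 841 of the 6460 thinned cells lay at or 1 UMI below the upper and 987 at or 1 UMI above the lower.

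Among partners of the methylation machinery the S-phase ratios of Uhrf1 and Hells exceeded that of Dnmt1, a difference that was not tested. Of 14 listed genes 8 were measured, and 2 passed as higher: Uhrf1, which recruits DNMT1 to replicated DNA, with log2 ratios of 1.21 and 1.69, and Hells, a chromatin remodeller needed for DNA methylation, with 0.89 and 1.5. Cdca7, a partner of Hells in remodelling, had ratios of 0.48 and 0.56. Of 8 PRC2 partners 3 were measured and none passed; the histone-binding subunits Rbbp7 and Rbbp4 were at 0.53 and 0.57 and at 0.20 and 0.18. None passed among 4 measured of 18 PRC1 genes, 3 of 8 Polycomb antagonists and 4 of 13 genes known as Polycomb targets. Of the targets, Cdkn2a and Cdkn2b, cell-cycle inhibitors, had no UMI in either library, which allows up to 0.296 and 0.160 CPM, while Hoxa9 was at 94.8 and 92.9 CPM.

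Dnmt1, Uhrf1 and Hells were each higher in the S-phase-rich class, and Eed and Ezh2 were measured beside them. Whether they were higher in the same single cells was not tested. The promoters of these genes, the other regulators, Cdca7 and Rbbp7 were searched for 4 letter strings of the E2F motif. The strings were TTTCCCGC, TTTCGCGC, TTTGCCGC and TTTGGCGC, on both strands. The promoters shown were chosen after the S-phase values were seen. E2F factors activate many replication genes. The windows run from 250 bases before to 50 after an annotated start, on RefSeq GRCm38.p6. Dnmt1 has 3 such windows and Uhrf1 2, of which the window with a match is shown. The strings as they appear on the strand of the gene are in capitals.
Dnmt1, chr9:20952574-20952873 (minus strand): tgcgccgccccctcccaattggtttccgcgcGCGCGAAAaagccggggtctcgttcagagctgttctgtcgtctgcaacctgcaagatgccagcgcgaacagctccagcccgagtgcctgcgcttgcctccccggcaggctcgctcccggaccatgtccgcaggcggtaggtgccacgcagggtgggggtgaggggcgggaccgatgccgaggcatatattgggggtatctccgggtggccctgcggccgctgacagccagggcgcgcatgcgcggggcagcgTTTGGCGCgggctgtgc
Ezh2, chr6:47594981-47595280 (minus strand): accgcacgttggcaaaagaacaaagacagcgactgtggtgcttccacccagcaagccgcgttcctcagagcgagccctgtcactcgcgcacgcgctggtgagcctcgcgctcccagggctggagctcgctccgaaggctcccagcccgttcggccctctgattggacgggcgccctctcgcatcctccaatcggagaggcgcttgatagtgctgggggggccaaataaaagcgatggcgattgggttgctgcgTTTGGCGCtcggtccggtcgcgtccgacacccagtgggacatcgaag
Uhrf1, chr17:56304063-56304362 (plus strand): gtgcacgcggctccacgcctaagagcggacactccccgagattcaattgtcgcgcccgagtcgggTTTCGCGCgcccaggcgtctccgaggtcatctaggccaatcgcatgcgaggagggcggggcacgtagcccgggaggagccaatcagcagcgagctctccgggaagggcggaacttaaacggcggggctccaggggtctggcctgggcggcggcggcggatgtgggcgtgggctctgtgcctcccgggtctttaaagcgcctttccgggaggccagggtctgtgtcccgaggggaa
Hells, chr19:38930740-38931039 (plus strand): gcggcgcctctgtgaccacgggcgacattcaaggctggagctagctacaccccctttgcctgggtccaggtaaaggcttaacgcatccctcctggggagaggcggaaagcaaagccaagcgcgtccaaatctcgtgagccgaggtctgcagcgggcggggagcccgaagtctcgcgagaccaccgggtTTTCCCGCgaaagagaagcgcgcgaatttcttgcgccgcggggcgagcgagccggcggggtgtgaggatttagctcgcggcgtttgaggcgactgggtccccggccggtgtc
Eed, chr7:89980927-89981226 (minus strand): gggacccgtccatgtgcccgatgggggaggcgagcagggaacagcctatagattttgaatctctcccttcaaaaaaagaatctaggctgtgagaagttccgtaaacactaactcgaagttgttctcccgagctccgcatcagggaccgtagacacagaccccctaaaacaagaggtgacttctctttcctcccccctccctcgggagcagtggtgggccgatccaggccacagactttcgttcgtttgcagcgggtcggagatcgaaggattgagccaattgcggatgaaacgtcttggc
Dnmt1 held 2 matches, 219 bases before and 33 bases after the start. Ezh2 held a match 3 bases after its start, Uhrf1 185 bases before and Hells 62 bases before. Eed held none. Among the 10 regulators 3 had a match, with Suz12, at 219 bases before its start, as the third. Suz12 did not pass by S phase. Cdca7, which did not pass either, held a match 71 bases before its start, and Rbbp7 held none. Whether a match goes with a higher level in S phase was not tested. Of 27025 genes with such windows 2.61% had a match in at least 1 of them; of 32851 windows 2.26% had a match, and of the 9690 windows with at least 60% G or C 4.29%. The windows of Dnmt1 and Ezh2 shown here hold 69.7% and 64.3% G or C and that of Eed 54.7%. A match is a stretch of letters, and binding was not measured.

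By mitotic transcripts, summed over 25 genes such as Top2a, Ccnb1 and Plk1, no regulator passed in both libraries. In the draw reported Suz12 and Dnmt3b were past 1.5-fold in library 2 alone. As a mean over 20 draws Suz12 stayed past it there and Dnmt3b did not. Cells with 7 or more mitotic UMIs (478 and 1370 cells) were set against cells with 1 or fewer (1040 and 1349). Of all genes measured 3.58% passed as higher and 2.05% as lower, and of the 8 regulators measured none passed either way. Suz12 came nearest, at 31.4 CPM (21.2 to 44.8) against 24.0 CPM (17.8 to 31.7) in library 1 and at 31.4 CPM (25.1 to 38.8) against 15.9 CPM (11.5 to 21.5) in library 2. Its ratio was 1.31 (0.801 to 2.09) in library 1 and 1.97 (1.35 to 2.91) in library 2, and it passed in both in 5 of 20 draws. Ezh2 was at 92.1 against 84.6 CPM and at 108.4 against 74.1 CPM, a ratio of 1.09 (0.832 to 1.41) and 1.46 (1.22 to 1.76). Dnmt1 had log2 ratios of 0.12 and 0.27, and Eed of -0.14 and 0.08.

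Neither de novo enzyme was higher in the mitotic cells of both libraries. Dnmt3a was at 19.9 CPM (12 to 31.0) against 37.5 CPM (29.6 to 46.8) in library 1 and at 26.3 CPM (20.6 to 33.1) against 32.2 CPM (25.8 to 39.8) in library 2. The lower level in library 1 shrank from a log2 ratio of -0.92 in the draw reported to a mean of -0.39 over 20 draws, whose range was -0.71 to 0.08. Dnmt3b went opposite ways, with ratios of 0.725 (0.442 to 1.15) and 1.62 (1.15 to 2.30). Of the pathway genes only Hells passed, as lower, with -0.94 and -0.72. The mitotic cells were deeper before thinning, with medians of 4020 and 5156 UMIs against 2761.5 and 3038, and their share of the thinned cells was 19.6% in library 1 and 34.1% in library 2. Myeloid markers, which include the granule genes Mpo and Elane, summed to 1778 against 1382 CPM and to 1985 against 1186 CPM in the mitotic and non-mitotic cells. Their part in these values was not tested.

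**Figure D3:**
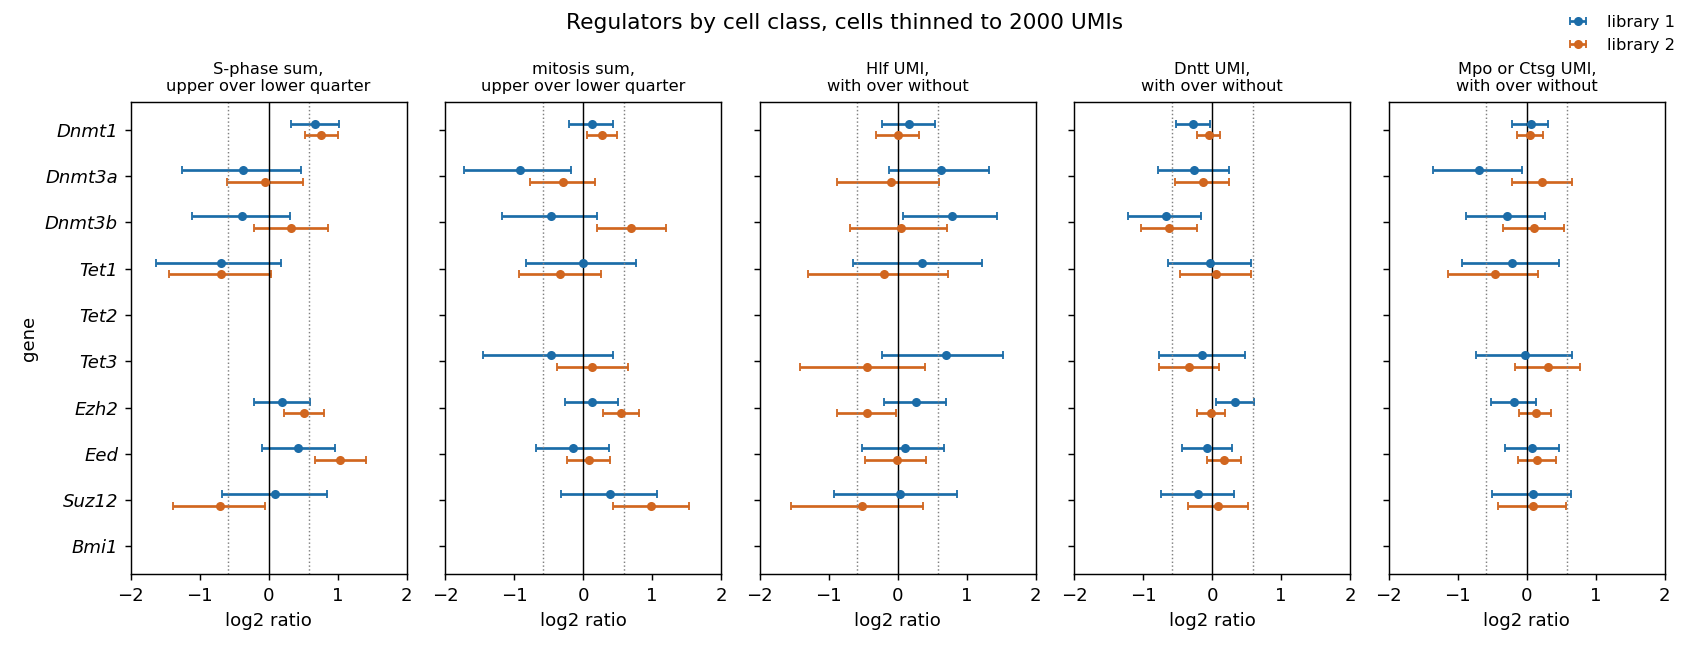
Log2 ratio of each regulator between cell classes in library 1 and library 2, in cells thinned to 2000 UMIs; bars are exact 95% intervals for counting error, dotted lines mark 1.5-fold, and genes with under 50 UMIs in the compared cells of a library have no point. Dnmt1 lies beyond the dotted line in both libraries by S phase (0.67 and 0.76), and most other intervals cover 0.

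S-phase and mitotic transcripts occur in the same cells in part, so the thinned cells were also split by both sums at their medians, 8 and 3 UMIs. This split was made in the draw reported only. Cells below both medians made up 28.0% of library 1 and 17.9% of library 2, and cells at or above both 26.4% and 34.8%. Dnmt1 was lowest in cells low in both sums, at 101.6 and 97.2 CPM. It was at 138.5 and 150.0 CPM in cells high in S phase only, at 120.9 and 130.2 CPM in cells high in mitosis only, and at 152.2 and 179.3 CPM in cells high in both. This order of the 4 classes held in both libraries. Against the low class, the ratio was 1.36 (1.08 to 1.72) and 1.54 (1.26 to 1.9) with S phase alone, and 1.19 (0.920 to 1.53) and 1.34 (1.08 to 1.66) with mitosis alone.

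Ezh2 differed between the libraries in the class low in both sums, at 88.5 and 58.3 CPM, a library 2 over library 1 ratio of 0.660 (0.493 to 0.878). In the other 3 classes library 2 was above library 1, at 98.2 against 82.0, 109.3 against 82.0 and 114.9 against 108.7 CPM. Those ratios were 1.20 (0.94 to 1.54), 1.33 (1.02 to 1.75) and 1.06 (0.86 to 1.30), of which the first and the last included 1. Relative to its own low class Ezh2 was therefore 1.97-fold (1.54 to 2.54) higher in the class high in both in library 2 and 1.23-fold (0.96 to 1.58) in library 1, and the difference between the libraries was not tested. Eed was at 54.1, 64.5, 47.1 and 61.3 CPM in library 1 and at 51.4, 76.0, 57.4 and 86.6 CPM in library 2, in the order low, S phase only, mitosis only and both. Suz12 in cells high in S phase only was at 33.4 and 13.6 CPM, on 42 and 27 UMIs. Its library 2 ratio by S phase in this draw lay outside the range of the 20 draws. For Ezh2 the log2 ratios by S phase were 0.20 and 0.51 in this draw and 0.43 and 0.35 as 20-draw means. Dnmt3a in cells high in both was at 17.1 and 25.1 CPM, below its level in the low class in both libraries, 35.1 and 31.9 CPM. In library 2 that ratio, 0.78 (0.53 to 1.16), included 1. Other library 2 over library 1 ratios whose intervals left out 1 were in cells high in S phase only and in cells high in both. In the former they were Suz12, 0.41 (0.24 to 0.68), Dnmt3b, 0.60 (0.38 to 0.96), and Bmi1, 3.04 (1.14 to 10.2), on 5 and 24 UMIs. In the latter it was Eed, 1.41 (1.09 to 1.84). No share over all genes was taken for these classes.

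**Figure D4:**
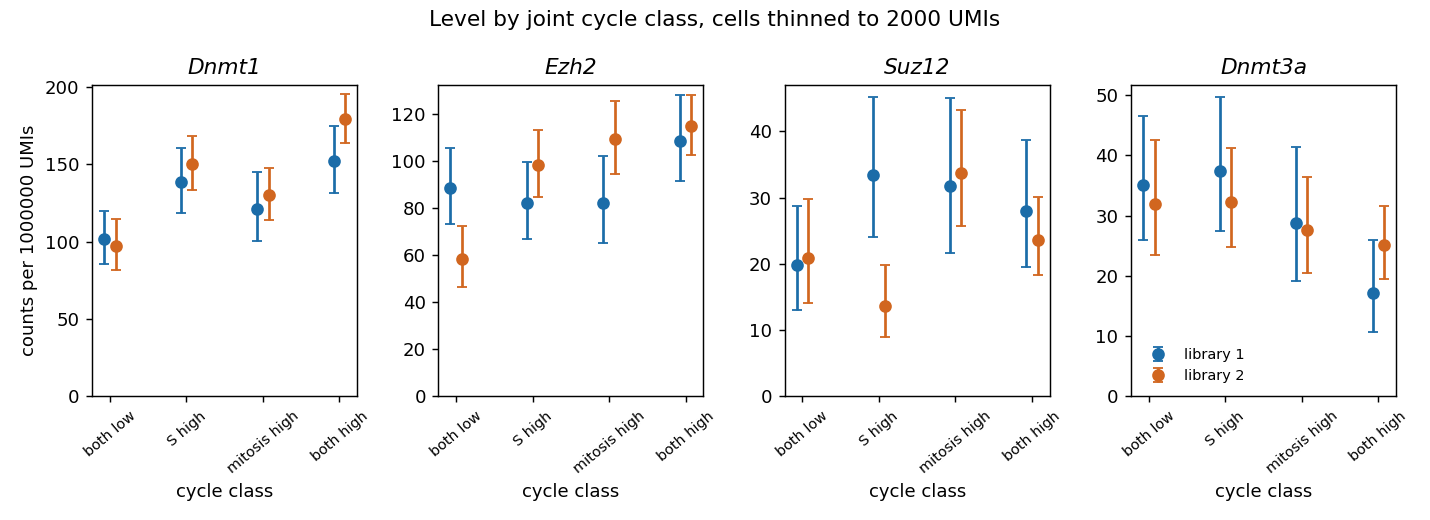
Level of Dnmt1, Ezh2, Suz12 and Dnmt3a (counts per 1000000 UMIs) in thinned cells split at the medians of the S-phase and mitosis sums; bars are Poisson 95% intervals for counting error. Dnmt1 is lowest in cells low in both sums in each library (101.6 and 97.2) and highest in cells high in both (152.2 and 179.3). In the draw reported, the only one split this way, the libraries part for Ezh2 in the low class and for Suz12 in the class high in S phase only.

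By lineage transcripts, 1 regulator passed the rule in the 3 comparisons made, Dnmt3b by Dntt. Hlf encodes a transcription factor of stem cells, and cells with a Hlf UMI (229 and 334) were set against cells without (2215 and 3682). The 8 other stem markers, which include the sort gene Ly6a, summed to 566 against 522 CPM and 639 against 501 CPM. The gate therefore parted these markers little. Erythroblast markers were at 197 against 79.0 CPM and 105 against 45.2 CPM, and lymphoid-primed markers at 441 against 850 CPM and 596 against 1022 CPM. Their part in the regulator values was not tested. Of 6342 genes measured 0.978% passed as higher and 1.29% as lower, and none of the 8 regulators measured passed. Dnmt1 was at 141.9 against 126.9 CPM and at 146.7 against 146.3 CPM. Dnmt3a, known from stem cells, had log2 ratios of 0.63 and -0.10, and a mean over 20 draws of 0.52 and 0.17. Ezh2 had 0.26 and -0.44. Bmi1 had 5 UMIs in the Hlf-positive cells of each library, 10.9 CPM (3.5 to 25.5) and 7.5 CPM (2.4 to 17.5), so that a difference from 7.2 and 9.8 CPM in the other cells was not detectable at this depth.

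Dnmt3b by Hlf shows how far 1 cell can reach. It was at 50.2 CPM in Hlf-positive and 29.1 CPM in Hlf-negative cells of library 1, a ratio of 1.72 (1.06 to 2.70), and at 29.9 and 28.9 CPM in library 2. A cell of library 1 held 12 Dnmt3b UMIs, 8 of them after thinning, more than any other cell had of any of the 10 genes, and it had a Hlf UMI. Without it the log2 ratio of library 1 fell from 0.79 to 0.18. The share of cells with a Dnmt3b UMI, which counts that cell once, was 6.55% against 5.73% in library 1 and 5.99% against 5.46% in library 2.

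Dntt encodes terminal deoxynucleotidyl transferase, which adds nucleotides at the junctions of antigen receptor genes and is an early sign of lymphoid priming. Cells with a Dntt UMI (964 and 1754) were set against cells without (1480 and 2262). Of all genes measured 0.915% passed as higher and 0.93% as lower. Of the 8 regulators measured Dnmt3b passed as lower. Dnmt3b was at 22.8 CPM (16.6 to 30.6) in Dntt-positive and 36.5 CPM (29.9 to 44.1) in Dntt-negative cells of library 1 and at 22.2 CPM (17.6 to 27.8) and 34.3 CPM (29.1 to 40.1) in library 2. It was seen in 4.46% against 6.69% of cells and in 4.28% against 6.45%. The ratios were 0.625 (0.430 to 0.896) and 0.649 (0.488 to 0.857). The call stood close to the rule: without the cell with 12 Dnmt3b UMIs, which had no Dntt UMI, the log2 ratio of library 1 was -0.57 and did not reach 1.5-fold. Over 20 draws the mean was -0.43 in both libraries, with each draw below 0 and none past 1.5-fold in both. With all UMIs it was -0.53 and -0.57.

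Dnmt3a, the other de novo enzyme, was at 26.5 against 31.8 CPM and at 27.1 against 29.8 CPM by Dntt, with intervals of the ratio that included 1. Dnmt1 was at 113.6 against 137.8 CPM, a ratio of 0.824 (0.696 to 0.973), in library 1 and at 143.4 against 148.5 CPM, a ratio of 0.965 (0.858 to 1.09), in library 2. Ezh2 was at 103.7 against 82.4 CPM in library 1 and at 98.6 against 99.9 CPM in library 2. Of the pathway lists only Yaf2, a subunit of variant PRC1, passed, as lower, with log2 ratios of -1.04 and -1.09. All kept cells held 105 and 213 Yaf2 UMIs, and the ratios rest on the fewer UMIs of the thinned cells. They are of the draw reported, and Yaf2 was not followed over other draws. Markers of other lineages moved with the Dntt classes, some lower and some not. Over all kept cells Car2 alone gave 329 and 385 CPM of the 345 and 402 CPM of the 9 megakaryocyte and erythroid markers. In Dntt-positive against Dntt-negative cells the 9 myeloid markers summed to 1217 against 1915 CPM and 1166 against 1977 CPM. The megakaryocyte and erythroid markers, mostly Car2, summed to 234 against 384 CPM and 355 against 497 CPM. The dendritic markers summed to 718 against 1420 CPM in library 1 and 750 against 733 CPM in library 2, and the 6 T and NK markers to 327 against 299 CPM and 332 against 306 CPM. Their part in the Dnmt3b values was not tested.

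Mpo and Ctsg encode granule proteins of the myeloid lineage. The cut at the upper 25% of their summed UMIs fell at 1 UMI, so cells with any (637 and 980) were set against cells with none (1807 and 3036). Of 6341 genes measured 0.41% passed as higher and 1.14% as lower, and none of the 8 regulators measured passed. Dnmt1 was at 131.9 against 127.0 CPM and at 150.0 against 145.1 CPM, ratios of 1.04 (0.865 to 1.24) and 1.03 (0.903 to 1.18). Dnmt3a was at 20.4 against 32.9 CPM in library 1 and at 32.1 against 27.5 CPM in library 2. Tet2, with 4 and 26 UMIs in library 1 and 19 and 31 in library 2, was under the minimum for the comparison.

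The lineage comparisons were repeated in cells below both cycle medians, 684 cells of library 1 and 720 of library 2. There only Dnmt1, Ezh2 and Eed had enough UMIs, and none passed by Hlf, Dntt or Mpo and Ctsg, beside 0.78% of 2819 genes higher and 2.52% lower by Hlf, 0.709% and 0.78% by Dntt, and 0.461% and 1.1% by the granule genes. The Polycomb antagonist Kmt2a, a histone H3 lysine 4 methyltransferase, passed as lower in Hlf-positive cells, with log2 ratios of -1.16 and -0.59, where it was the only measured gene of its list and the Hlf-positive class held 77 cells in each library. Over all thinned cells its log2 ratios by Hlf were 0.04 and 0.55, of the opposite sign, and it did not pass.

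Across the 5 comparisons and 2 libraries, a profile of 10 log2 ratios was formed for each regulator with at least 200 UMIs in thinned cells that was measured in every comparison. Tet3, with 289 such UMIs, was not measured by S phase and has no profile. By Euclidean distance between profiles the nearest of 4304 other genes to Dnmt1 were Nap1l1, a histone chaperone, at 0.35, Ranbp1, a regulator of the Ran GTPase, at 0.37, and Dctpp1, which clears dCTP, at 0.38, beside a median distance of 1.30 over all of them. Nearest to Eed were Dtymk, thymidylate kinase, at 0.42, and Nap1l1 and Nelfe, each at 0.49. Nearest to Ezh2 were Rpp30 at 0.53, Calu at 0.54 and Pds5a, a cohesin regulator, at 0.64. For the genes of lower counts the nearest were Smek2, Tfg and Pgm2l1 to Dnmt3a (0.71 to 0.80), Naa25, 1700017B05Rik and Lrrc58 to Dnmt3b (0.93 to 0.99), Lrrk1, Sdf2 and Cnot2 to Tet1 (0.35 to 0.63), and Arid1a, Fcho1 and Myo9b to Suz12 (0.68 to 0.74). Among the regulators Dnmt1 and Eed were closest, at 0.58, followed by Dnmt1 and Ezh2 at 1.01. Ezh2 and Suz12, subunits of 1 complex, stood at 1.48, and Dnmt3a and Dnmt3b at 1.40. The median distance over the 4304 genes was 1.27 for Ezh2, 1.60 for Suz12, 1.72 for Dnmt3a and 1.79 for Dnmt3b. The profiles carry the counting error of their ratios, and no shared function or control was read from a distance. They are of the draw reported only. In it Suz12 by S phase in library 2 and Dnmt3a by mitosis in library 1 lay outside the range of the 20 draws. The Dnmt3b profile includes the cell with 12 Dnmt3b UMIs.

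**Figure D5:**
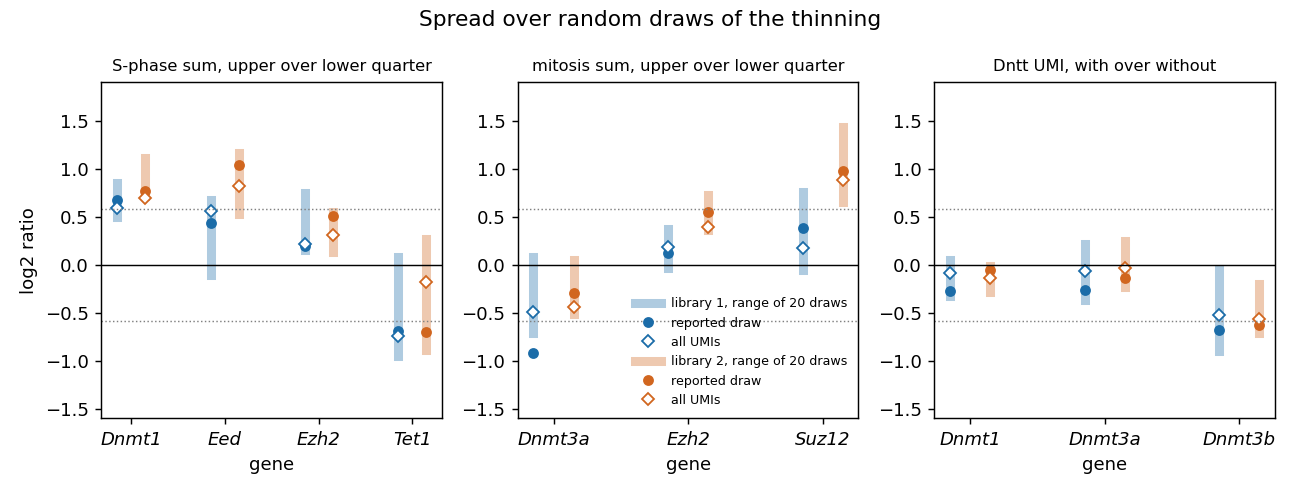
Log2 ratio of selected regulators between cell classes, as the range over 20 random draws of the thinning (thick lines), in the draw reported (filled points) and with all UMIs (open diamonds), for each library; dotted lines mark 1.5-fold. Dnmt1 by S phase stays above 0 in each draw, and Dnmt3a by mitosis in library 1 (-0.92) lies outside the range of its 20 draws.

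The 10 genes are annotated on GRCm38 as protein coding, with Dnmt1 on chr9:20907209-20959888, Eed on chr7:89954654-89980983, Ezh2 on chr6:47530139-47595341 and Suz12 on chr11:79993106-80034123. Dnmt3b lies on chr2:153649450-153687730 and Tet1 on chr10:62804570-62908996. In none of the 10 does the last stretch of the transcript, where these reads start, share a 50-base sequence with another annotated gene, and no annotated gene overlaps the last 1000 bases.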

How the data were processed

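The authors deposited 1 matrix of UMI counts (unit: count) for 27998 genes and 7884 barcodes, and its values were whole numbers up to 436. Cell Ranger 1.1 and the mouse build mm10 are named per the submitters' processing notes. The annotation, read filters and cell calling are not given in the sources used here, nor is whether the libraries were brought to equal depth. The libraries held 10118499 and 18750468 UMIs in kept cells. Each kept cell with at least 2000 UMIs was thinned without replacement to 2000. S-phase and mitosis classes were cut at the 25th and 75th percentiles of the pooled cells. Ratios of UMIs per total UMIs carry exact conditional Poisson intervals, levels exact Poisson intervals and shares Clopper-Pearson intervals. The procedure was tested on simulated data.

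All 10 regulators are named, with the genes of the partner lists that passed the 1.5-fold rule (up to 4 per list) and the 3 genes nearest in profile to each regulator measured in every comparison; other genes of those lists were named after their values were seen. The regulators, lists and comparisons were chosen with earlier results of these data known. Alternatives covered the thinning depth and draw, the cell filter, the cuts, the fold rule, and scaling by TMM in edgeR 4.0.16 under R 4.3.3. Shared sequence was sought among 141767 transcripts of GENCODE M21 on GRCm38, where 27645 identifiers were found, within the last 300 bases. Python 3.11.15, numpy 2.4.6, scipy 1.17.1 and pandas 2.3.3 were used.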

Additional observations from a re-analysis of the deposited data

How the results depend on the processing

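Of 154 counts of regulators past the rule under an alternative, 125 were within 1.5 times the reported count and 29 were not. Most reported counts were 0, and 0 against 0 was scored as within, so the 125 do not measure how stable the calls were. By S phase the reported count was 1 higher (Dnmt1). It was 3 at 1000 UMIs (Dnmt1, Ezh2 and Eed), 2 with another random draw and with 10% classes (Dnmt1 and Eed each time), 2 at a looser fold rule, and 0 at 2-fold, with classes split at the median, and in cells with at least 1000 genes and under 5% mitochondrial UMIs. It stayed 1 at 3000 UMIs, but with Eed in place of Dnmt1, whose log2 ratios were 0.51 and 0.74. The Dnmt1 log2 ratio itself stayed positive under all alternatives run, from 0.41 to 1.12 in library 1 and from 0.53 to 1.06 in library 2. The count of 1 lower by S phase (Tet1) became 0 at 1000 and 3000 UMIs, with all UMIs, another draw, 2-fold, 10% classes, a split at the median, cells below the mitosis median, and the mean of 20 draws. At 1000 and 3000 UMIs, with another draw, with 10% classes and below the mitosis median Tet1 had too few UMIs to be called; its log2 ratios with 10% classes were -1.13 and -0.97, and below the mitosis median -1.03 and -1.05. At 1000 UMIs the Tet1 log2 ratio of library 1 was 0.71, the opposite sign, and the cause was not tested. It was the 1 reversal counted among 952 single-gene values. Reversals were counted only for regulators that passed the comparison in the draw reported, and other values changed sign too. By mitosis in library 1, Ezh2 was negative in 4 of 12 alternatives, down to -0.23, and Suz12 in 1, at -0.13. By mitosis 1 gene, Suz12, passed as higher at 1000 UMIs and 1 at the looser fold rule, against 0. By Hlf 1, Dnmt3b, passed as higher with at least 2 of Hlf, Mecom, Procr and Mllt3, against 0. The count of 1 lower by Dntt (Dnmt3b) became 0 at 1000 and 3000 UMIs, with all UMIs, another draw, 2-fold, without the 5% of cells with the most UMIs, in cells below both cycle medians, with the mean of 20 draws, and without the cell with 12 Dnmt3b UMIs. In cells below both cycle medians Dnmt3b had too few UMIs to be called, with log2 ratios of -0.43 and -0.37. Between libraries 1 gene, Tet1, passed as lower at the looser fold rule, against 0. The causes of these changes were not tested. The 20 draws, the removal of MHC class II cells and that of the Dnmt3b-rich cell were chosen after seeing the data. No paired analysis was possible because each genotype has 1 sample and the labels carry no replicate numbers.

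Depth limits most of the regulators: Tet2 and Bmi1 had too few UMIs for a class comparison in the draw reported and reached the minimum by Mpo and Ctsg in 5 and 10 of 20 other draws, and single draws of the thinning moved the ratios of Tet1, Dnmt3a, Dnmt3b and Suz12 by more than 0.5 log2 units. Free RNA and doublets were not measured, the libraries cannot be tied to a genotype here, and differences between animals cannot be told apart from differences between preparations.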
